A study of Mus musculus with 5 samples.

Results

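TAF7L binding in mouse testis was recorded per transcript in 3 position classes, named promoter, proximal and distal. The transcripts described here had a TAF7L promoter score of 0 and a TAF7L proximal score above 0. They were 4588 of 55419 transcripts of the binding table, or 8.28%, and 3571 of them carried a gene name, which gave 2315 named genes. The other classes were 16039 transcripts with a TAF7L promoter score, 10862 with a distal score only and 23930 with no TAF7L score.

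All material was testis of 3-month-old mice. The RNA libraries were polyadenylated RNA of wild-type males and of Taf7l-/Y males, which carry the knockout allele on their single X chromosome, with equal amounts of 6 RNA extracts pooled into 1 library per genotype. TAF7L and RNA polymerase II (Pol II) were immunoprecipitated from sheared chromatin of testis, in 1 library each. These libraries are labelled wild type, although the protocol that the labels share names chromatin of both genotypes. The Taf7l-/Y allele is not described as limited to a cell type, and whole testis mixes germ cells with Sertoli, Leydig and other somatic cells. No condition had a second library, so differences are given by size, without a test and without a replicate check. The expression table gives a standard deviation (SD) beside each mean RNA signal, without stating over which values.

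The labels held in the data. Taf7l had an RNA signal of 13.2 (deposited SD 1.56) in wild-type and 2.04 (0.60) in knockout testis. Germ cell genes were present, with Sycp3, a protein of the meiotic chromosome axis, at 24.2 and 43.4 and Acr, the acrosomal protease acrosin, at 70.5 and 55.7. The liver gene Alb was at 0.018 and 0.084. RNA of other cell types differed as well. The summed signal was 1170 in wild-type and 2390 in knockout testis for Sertoli cell markers, with 22 of 22 higher. For epididymis markers it was 259 and 539, with 15 of 18 higher. Peritubular and vascular markers summed to 302 and 323, with 12 of 14 higher. The Leydig cell sum was lower in the knockout, 2320 and 1800, although 14 of 17 markers were higher. The shift over all genes was a median log2 change of 0.40.

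TAF7L is a germ cell relative of TAF7, a subunit of TFIID. TFIID is the complex that recognises core promoters and helps Pol II start transcription. Genes for packaging and shaping the sperm are switched on after meiosis, in round spermatids, and their messages are stored until the histones are replaced by transition proteins and then protamines. A peak near a start site is usually assigned to a gene by distance alone, so that 1 peak can be listed for several transcripts around it. The header of the binding table gives neither the distance limits nor the definition of the score.

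The promoters of 6 genes show the kinds of gene in the class. Prm1, Prm2 and Tnp2 encode protamines and a transition protein and lie in 1 gene cluster without any TAF7L promoter score. Klhl10 encodes a substrate adaptor of a spermatid ubiquitin ligase and Tubb5 a beta-tubulin. Mcm2 encodes a subunit of the replicative helicase. The last 3 genes each carried the promoter score of a neighbouring gene. The windows run from 250 bases before to 50 bases after the RefSeq start in GRCm38.p6, 5′ to 3′ on the gene's strand. They lie at chr16:10796774-10797073 (Prm1, minus strand), chr16:10792056-10792355 (Prm2, minus), chr16:10788606-10788905 (Tnp2, minus), chr11:100441674-100441973 (Klhl10, plus), chr17:35838252-35838551 (Tubb5, minus) and chr6:88898731-88899030 (Mcm2, minus). Capitals mark matches to the 4 motifs searched on both strands, the TATA box (TATAAA), the cyclic AMP response element (TGACGTCA), the CCAAT box (CCAAT) and the GC box (GGGCGG).
Prm1: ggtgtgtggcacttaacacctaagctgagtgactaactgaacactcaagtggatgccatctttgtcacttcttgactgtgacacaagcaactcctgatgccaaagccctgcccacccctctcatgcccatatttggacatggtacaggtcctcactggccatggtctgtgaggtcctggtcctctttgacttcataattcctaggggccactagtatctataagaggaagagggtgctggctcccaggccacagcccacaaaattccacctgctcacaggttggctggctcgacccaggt
Prm2: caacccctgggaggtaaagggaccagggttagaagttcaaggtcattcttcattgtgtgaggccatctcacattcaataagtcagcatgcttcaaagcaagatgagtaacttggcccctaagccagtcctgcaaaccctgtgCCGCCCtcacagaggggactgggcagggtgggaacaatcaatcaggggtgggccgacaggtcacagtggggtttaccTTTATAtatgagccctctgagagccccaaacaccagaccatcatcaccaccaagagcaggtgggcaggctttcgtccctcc
Tnp2: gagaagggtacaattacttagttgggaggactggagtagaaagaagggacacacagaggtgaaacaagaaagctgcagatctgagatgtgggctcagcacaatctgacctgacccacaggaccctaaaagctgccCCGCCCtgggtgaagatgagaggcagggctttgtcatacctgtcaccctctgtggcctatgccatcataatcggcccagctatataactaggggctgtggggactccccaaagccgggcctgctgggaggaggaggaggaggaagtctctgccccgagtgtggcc
Klhl10: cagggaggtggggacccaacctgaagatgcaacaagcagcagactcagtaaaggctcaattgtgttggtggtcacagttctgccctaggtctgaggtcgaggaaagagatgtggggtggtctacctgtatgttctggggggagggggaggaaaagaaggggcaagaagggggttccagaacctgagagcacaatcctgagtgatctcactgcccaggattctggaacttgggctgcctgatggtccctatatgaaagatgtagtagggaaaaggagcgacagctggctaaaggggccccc
Tubb5: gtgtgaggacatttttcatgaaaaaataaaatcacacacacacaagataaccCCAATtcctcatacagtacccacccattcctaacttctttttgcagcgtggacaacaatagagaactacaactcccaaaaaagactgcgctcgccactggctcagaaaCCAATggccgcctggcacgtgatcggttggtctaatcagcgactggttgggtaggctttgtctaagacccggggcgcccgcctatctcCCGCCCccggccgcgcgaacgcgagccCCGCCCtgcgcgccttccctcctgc
Mcm2: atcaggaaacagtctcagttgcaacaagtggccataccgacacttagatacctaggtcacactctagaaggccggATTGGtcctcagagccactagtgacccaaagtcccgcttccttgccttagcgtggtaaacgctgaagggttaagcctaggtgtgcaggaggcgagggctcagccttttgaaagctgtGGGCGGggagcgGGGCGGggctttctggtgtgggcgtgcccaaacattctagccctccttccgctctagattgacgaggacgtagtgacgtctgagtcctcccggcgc

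The 3 spermatid genes of chromosome 16 and Klhl10 held few CpG dinucleotides in these windows, 1 in Prm1, 3 in Prm2, 4 in Tnp2 and 2 in Klhl10. Tubb5 held 20 and Mcm2 held 16, beside a median of 7 over the 32851 promoters of the table. The median was 20 over the promoters matched to named genes with a mean RNA signal of 1 or more. There 9754 of 12728 genes were matched, also under 80%, so that median is a description and not a comparison. Prm2 had a TATA box match on the reverse strand 31 bases before its start and a GC box match 108 bases before it. Tnp2 had a GC box match 115 bases before its start, while Prm1 and Klhl10 had no match to any of the motifs. In Tubb5, CCAAT matches began 198 and 90 bases before the start, and GC box matches began 2 bases before and 25 bases after it. Mcm2 had a CCAAT box match 175 bases and GC box matches 58 and 46 bases before its start. Over all promoters of the table, 13.6% held the TATA box letters, 1.79% the cyclic AMP response element, 37.4% the CCAAT box and 35.7% the GC box. Promoters were found for 923 of the 1432 class genes without a promoter score on any transcript, under the 80% set for comparing motif shares between classes, so no such comparison is made.

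The members were chosen by their TAF7L promoter and proximal scores, so these values are given as a description. The TAF7L proximal score of the members ranged from 2.03 to 652, with a median of 61.8 and quartiles of 42.3 and 87.2. It was of the size of the promoter scores of the promoter class, whose median was 71.4. Just inside the limit lay Bpil2 with a proximal score of 2.03, mKIAA0847 with 4.02 and Gm6537 with 13.8. Just outside it lay Naif1, Pdik1l and Smek2, with promoter scores of 0.119, 0.152 and 0.213 beside proximal scores of 81.6, 103 and 145. A distal score was also present for 2687 members, or 58.6%. Of all 10984 transcripts with a proximal score, the other 6396 had a promoter score as well.

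The members were spread unevenly over the chromosomes. They made up 12.8% of the transcripts of chromosome 17 and 5.49% of those of chromosome 18, the highest and lowest shares among the autosomes. Only 20 members, 0.436%, lay on chromosome X, which holds 3.65% of all transcripts. This was also low in the TAF7L promoter class, at 0.368%, and less so among transcripts with a Pol II promoter score, at 2.84%. The mitochondrial chromosome gave 4 members, all with a proximal score of 604, and Cox2, Atpase6 and mt-Nd4 were among them. Short transcripts spanning under 200 bp made up 840 members, or 18.3%, beside 7.52% of all transcripts, 0.542% of the promoter class, 8.91% of the distal class and 9.50% of transcripts with no TAF7L score.

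Most members shared their proximal score, to all 3 significant digits, with the promoter score of another transcript. An equal TAF7L promoter score was found on the same chromosome for 3891 members, or 84.8% (95% Wilson interval 83.7 to 85.8, counting error only). For 3444 members, or 75.1%, it was found within 100 kb, and in 3441 of these the gap between the transcripts was at most 12 kb. The carrier of the promoter score was another transcript of the same gene for 1017 members (22.2%), another named gene for 1907 (41.6%) and an unnamed transcript for 520 (11.3%). Some aliases were not merged, such as GPx4 with Gpx4 and nek2 with Nek2, so the 1907 include transcripts of the same gene. The remaining 1144 members, 24.9%, had no equal promoter score nearby. In 447 of those an equal score occurred only beyond 100 kb, and in 697 it did not occur on the chromosome. With 3 significant digits, unrelated transcripts of a chromosome can hold the same value, and how often was not tested.

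The Pol II scores, which did not choose the members, were shared in the same pairs. Among 3428 members with an equal TAF7L score within 100 kb and a Pol II proximal score, 3160 (92.2%) had a Pol II proximal score equal to the Pol II promoter score of the same partner. This held for 93.6% of pairs within a gene and 92.4% of pairs with another named gene. Pol II scores were compared only in pairs within 100 kb, so the share for more distant equal TAF7L scores was not measured. Srsf7, a splicing factor gene, and its neighbour Ttc39d on chromosome 17 give an example with high scores. Ttc39d had a TAF7L proximal score of 361 and a Pol II proximal score of 3260, and these were the TAF7L promoter and Pol II promoter scores of Srsf7. Ttc39d itself had a Pol II promoter score of 0.

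Strand was known for both transcripts in 1796 pairs, and the distance between the 2 start sites could be measured there. Its median was 5290 bp, and 5% of pairs lay below 747 bp and 5% above 9549 bp. Nearly all distances ended near 10 kb, with 1% of pairs above 9988 bp and the longest at 26403 bp. The partner's start lay upstream of the member's in 1356 pairs, or 75.5%. Within a gene, 690 of 864 pairs had the partner upstream, so the member was most often the transcript with the later start. Between genes, 482 of 932 pairs were divergent, 327 lay on the same strand and 123 were convergent.

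**Figure D1:**
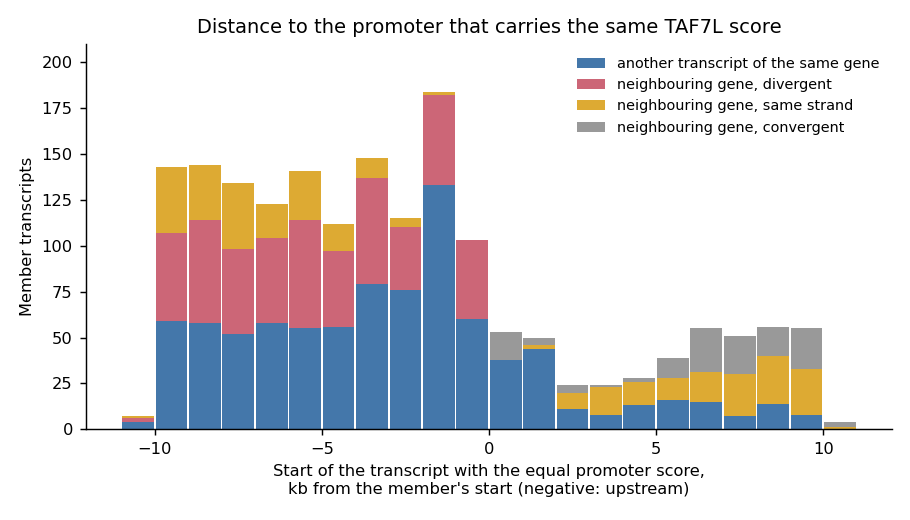
Number of member transcripts (y axis) by the distance in kb from the member's start to the start of the transcript whose promoter score equals its proximal score (x axis, bins of 1 kb, negative values upstream), stacked by the relation of the pair. Counts end near 10 kb on either side, and 1356 of 1796 pairs lie on the upstream side. The axis leaves out 3 longer pairs.

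Pol II marked fewer of the members' own promoters than of the promoter class. A Pol II promoter score was present for 2253 members, or 49.1% (95% Wilson interval 47.7 to 50.6, which covers counting over transcripts of 1 library only), against 99.5% of transcripts with a TAF7L promoter score, 41.5% with a distal score only and 29.0% with no TAF7L score. Transcripts of a gene share scores and are not independent, and with 1 transcript per gene the share of members was 38.9%. The median of the scores that were present was 134 in the members and 506 in the promoter class. In the proximal position the order turned round. A Pol II proximal score was present for 96.9% of members, with a median of 432, and for 67.5% of the promoter class, with a median of 170. Members were chosen for a TAF7L score in that position. For 3160 of them the Pol II proximal score equalled the Pol II promoter score of the partner. The turned order is therefore given as a description. A Pol II distal score was present for 83.6% of members and 97.8% of the distal class.

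**Figure D2:**
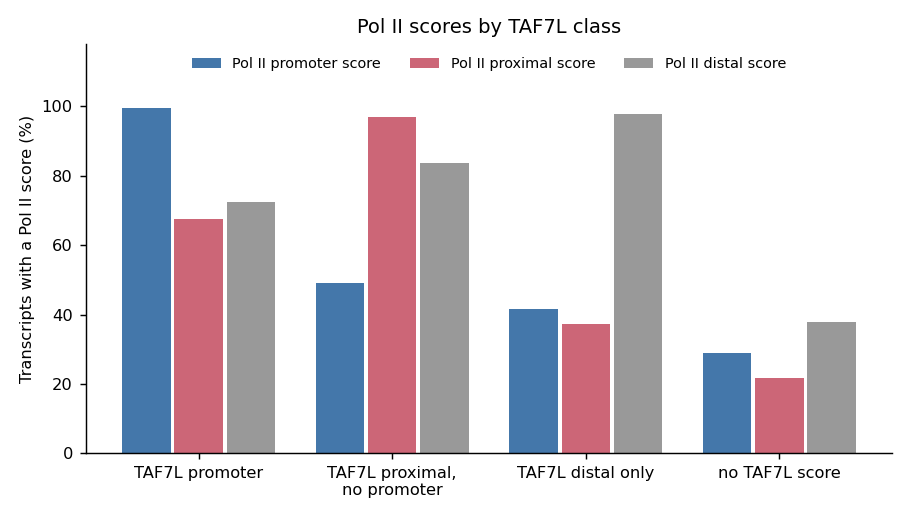
Share of transcripts in percent (y axis) with a Pol II promoter, proximal or distal score in each TAF7L class (x axis), from 1 library per antibody and therefore without error bars. The members stand at 49.1% for the promoter and 96.9% for the proximal position, and the promoter class at 99.5% and 67.5%.

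At the RNA level, 2846 members (62.0%) had a mean signal of at least 1 over both libraries. Counted by gene, with the member transcript of highest mean standing for the gene, 1744 of 2315 genes (75.3%) reached that level. Of these, 1622 did so in both libraries, 91 passed with a wild-type signal under 1 and 31 with a knockout signal under 1. The share that reached a mean of 1 was 57.2% over all named genes and 95.1% with a TAF7L promoter score. It was 49.1% with a distal score only and 30.0% with no TAF7L score. Within the class it was 90.8% for genes with a promoter score on another transcript and 65.8% for the rest. The median wild-type signal of the 1744 genes was 6.15, between 9.71 for genes with a TAF7L promoter score and 3.50 for genes with no TAF7L score. In the other TAF7L classes and over all named genes, the transcript of highest mean, member or not, stood for the gene. The class signal is therefore not taken in the same way. Class genes with a promoter score on another transcript also count among the genes with a TAF7L promoter score. The class fell into 3 groups of genes. In 883 genes another transcript had a TAF7L promoter score, in 964 the score was a neighbour's, and in 468 no equal promoter score lay nearby. The 964 include some genes whose supposed neighbour is the same gene under an unmerged alias. High signals were found for Prm1, Prm2, Tnp2 and Cox2 of the last group and Oaz3 of the second, with Prm1 at 17005, Prm2 at 16972, Tnp2 at 13511, Oaz3 at 1521 and Cox2 at 1400.

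In the knockout, 103 of 1744 class genes were at least 2-fold higher (5.91%, background 7.29% of all 12728 named genes). The number at least 2-fold lower was 134 (7.68%, background 7.18%). Change was taken as log2 of knockout plus 1 over wild type plus 1, which understates changes of low signals. Both shares stood near the background. With a pseudocount of 0.1 in place of 1, 238 were higher (13.6%, background 16.3%) and 160 lower (9.17%, background 9.02%), so that higher genes were then the more numerous. The median change was 0.34, beside 0.40 over all genes. After the shift of 0.40 was removed, 26 class genes were higher (1.49%, background 1.12%) and 240 lower (13.8%, background 12.8%). In bulk RNA, fewer cells of a type and less RNA per cell cannot be told apart.

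The 3 groups of class genes differed in these shares. Among the 802 measured genes with a promoter score on another transcript, 37 (4.61%) were lower and 25 (3.12%) higher, and genes with a TAF7L promoter score in general had 3.13% lower and 5.16% higher. Among the 636 genes with a neighbour's promoter score, 59 (9.28%) were lower and 51 (8.02%) higher. Among the 306 genes without an equal score nearby, 38 (12.4%) were lower and 27 (8.82%) higher. Genes with a distal score only had 9.55% lower and 9.60% higher, and genes with no TAF7L score 14.2% and 10.6%. When genes with spans under 200 bp were left out, the lower share was 8.53% with a neighbour's score, 11.3% without an equal score nearby and 6.84% over all genes, and the higher shares were 5.33%, 8.67% and 7.02%.

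**Figure D3:**
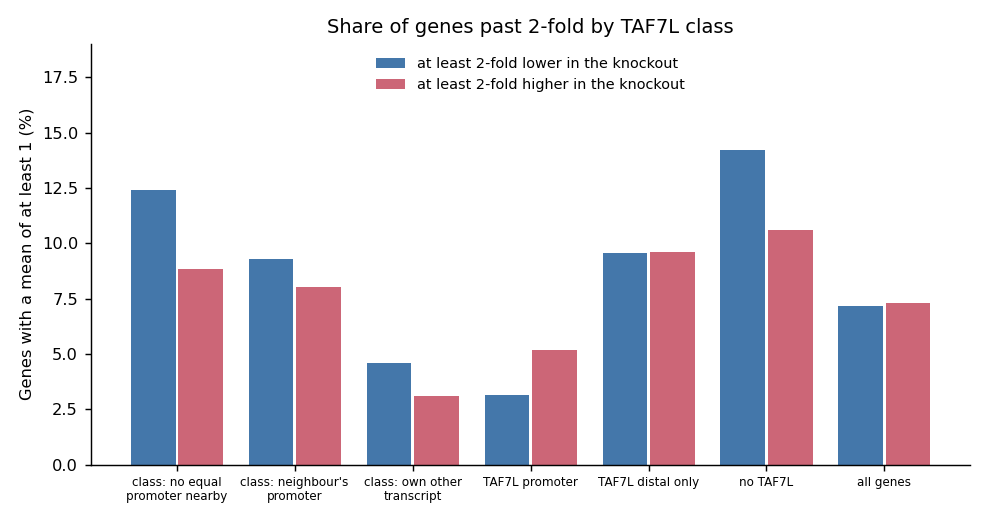
Share of genes (y axis, percent, of those whose mean signal reached 1) that were at least 2-fold lower or higher in the knockout, for the 3 groups of class genes, the other TAF7L classes and all genes (x axis). The lower share is 12.4% in class genes without an equal promoter score nearby, 4.61% in those with a promoter score on another transcript and 14.2% in genes without TAF7L score. No bar has an error bar, because each genotype had 1 library.

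The class was also split by own Pol II signal. Of the 942 measured genes without a TAF7L promoter score on any transcript, 607 (64.4%) had a Pol II promoter score of their own. Of those, 68 (11.2%) were lower and 43 (7.08%) higher in the knockout, beside 6.32% lower and 7.10% higher among all named genes with a Pol II promoter score. The higher share was thus that of all such genes. Genes with a Pol II promoter score and only a distal TAF7L score had 9.84% lower and 10.4% higher. Those with a Pol II promoter score and no TAF7L score had 13.2% and 11.4%, so the class share of lower genes lay between these groups. Of the 335 class genes without a Pol II promoter score, 29 (8.66%) were lower and 35 (10.4%) higher, beside 7.18% and 7.29% of all named genes. That background is not a like group, because 75.9% of all measured named genes had a Pol II promoter score. The shares among all named genes without one were not computed. With spans of at least 200 bp only, 65 (10.8%) were lower and 42 (7.0%) higher of 600 class genes with a Pol II promoter score. All named genes with such a score and span had 6.23% lower and 7.02% higher. Those with only a distal TAF7L score had 9.72% lower and 10.4% higher, and those with no TAF7L score 13.3% and 11.3%. Of 263 class genes without a Pol II promoter score, 17 (6.46%) were lower and 14 (5.32%) higher, beside 6.84% and 7.02% of all named genes of that span. The same limit holds for this background.

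Chromatin packaging genes of the sperm gave the highest signals and some of the largest decreases. Prm1 and Prm2, whose protamine products compact the DNA of the sperm nucleus, had signals of 17005 (deposited SD 636) and 16972 (465) in wild-type testis and 2991 (161) and 2341 (92.9) in knockout testis, changes of -2.51 and -2.86. Tnp2, a transition protein that precedes them, had 13511 (182) and 3062 (90.5), a change of -2.14, and Prm3 had 1178 (69.8) and 280 (24.3), a change of -2.07. All 4 were past 2-fold lower in the 1 knockout library. The testis histones of the same list were not past 2-fold, with H2bc1 at 10.7 and 11.1 and the linker histone gene H1f6 at 2.98 and 5.86. In the class, 4 of 6 measured members of this list were lower and 0 higher, and over the whole list 9 of 21 were lower.

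The protamine genes lie within 14.3 kb of chromosome 16 (mm9) with the cytokine signalling inhibitor gene Socs1. All 7 transcripts there had a TAF7L promoter score of 0. The proximal score was 45.8 for 6 of them and 37.3 for Prm1 (chr16:10796424-10796916, mm9), and the distal score was 93.4 throughout. No transcript of chromosome 16 had either proximal value as its promoter score. Pol II promoter scores were high along the cluster, 1090 for Tnp2, 871 for Prm1, 821 for Socs1, 812 for Prm3 and 714 for Prm2. Socs1 RNA stood at 3.09 (deposited SD 0.859) in wild-type and 3.42 (1.17) in knockout testis, within 2-fold, while Prm1, Prm2, Prm3 and Tnp2 were past 2-fold lower.

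**Figure D4:**
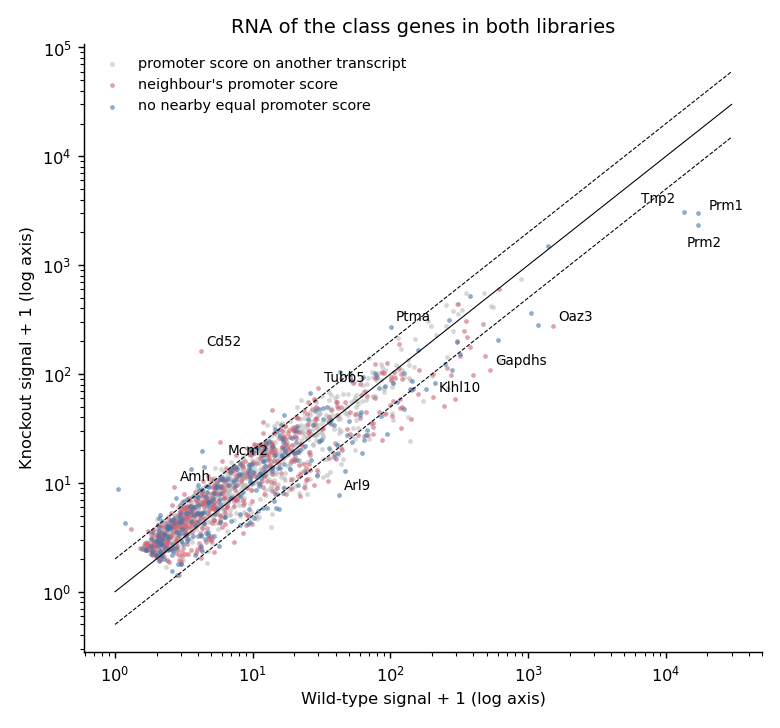
Wild-type signal plus 1 (x axis, log scale) against knockout signal plus 1 (y axis, log scale) for class genes of span 200 bp or more whose mean signal reached 1, coloured by group. The solid line marks equal values and the dashed lines 2-fold differences. Prm1, Prm2 and Tnp2 stand at the far right below the lower line, and Cd52 stands above the upper line.

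In the sperm tail and acrosome lists, every class member had either a neighbour's promoter score or one on another of its own transcripts. Oaz3, the testis antizyme of polyamine metabolism, had 1521 (deposited SD 27.8) and 273 (9.72), a change of -2.48. Akap3, an anchoring protein of the fibrous sheath, had 321 and 144. Spata18, known for its part in mitochondrial quality control, had 138 and 23.2, and there another transcript carried the promoter score. Of the tail list, 3 of 5 class members and 14 of 36 measured members were lower and 0 were higher. In the acrosome list, Actl7a, an actin-like protein of the sperm head, had 257 and 113, and the chaperone gene Calr3 had 53.9 and 19.1. Tex101, a germ cell surface protein, went the other way, from 21.4 to 56.5. There 3 of 6 class members were lower and 1 higher, and 10 of 32 were lower over the list.

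Energy metabolism and signalling had fewer members in the class. Gapdhs, the glycolytic enzyme of the sperm tail, had 529 (deposited SD 9.85) and 108 (4.79), a change of -2.29. Ldha and Aldoa, glycolytic enzymes of many tissues, stood at 213 and 226 and at 104 and 80.9. Among kinases and channels, the testis kinase gene Tssk4 had 23.1 and 9.66 and the potassium channel gene Kcnu1 16.6 and 6.91. The calcium channel gene Catsper2, with a promoter score on another transcript, had 27.9 and 26.6. Lower members were 1 of 3 in the energy list and 2 of 4 among kinases and channels, beside 9 of 25 and 11 of 25 over these lists. None was higher.

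Over these 5 sperm lists together, 53 of 139 measured genes were lower (38.1%). Of the 14 class genes without any TAF7L promoter score, 10 were lower (71.4%), with a median change of -1.18, and 4 of those 10 lie in the protamine cluster. The 4 that did not pass were H2bc1, H1f6, Aldoa and Acrbp, an acrosomal binding protein with 76.6 and 58.9. Genes of the lists with a distal score only had 8 of 13 lower, and those with no TAF7L score 19 of 29. Where any transcript had a TAF7L promoter score, 15 of 83 were lower (18.1%). Counted with every class gene, including those with a promoter score on another transcript, 13 of 24 were lower (54.2%) and 1 was higher.

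Earlier germ cell programmes showed other values. All 5 class genes for piRNA function, the small RNA defence against transposons, and all 4 of meiotic prophase had a TAF7L promoter score on another transcript. Piwil1, the piRNA-binding protein of pachytene cells, had 69.4 and 139, and Tdrd1, a Tudor scaffold of germ granules, had 8.75 and 19.05. Tdrd7, of the same family, had 26.97 and 26.8. Sycp2, of the meiotic chromosome axis, had 19.9 and 38.2. In these lists 1 of 5 and 0 of 4 class members were past 2-fold with the pseudocount of 1, in the upward direction. Over the whole lists, 4 of 18 and 5 of 33 measured genes were higher, and 0 and 1 lower. Prdm9, a class member of the meiotic list, had 0.719 and 1.832, a change of 0.72. After the shift of 0.40 was removed, no class member of these lists was past 2-fold. Stra8, the gene of meiotic entry in spermatogonia, had 3.37 and 9.31, with the promoter score of its neighbour Wdr91. Of the 6 class members among postmeiotic regulators, which include Crem, Ybx2 and Cpeb1, none passed 2-fold in either direction with the pseudocount of 1. Cpeb1 had 0.869 and 2.506, a change of 0.91 that became 1.43 with a pseudocount of 0.1. Over that list 3 of 30 measured genes were lower and 0 higher. The general transcription factor genes Tbp and Gtf2h1 had 27.8 and 30.9 and 19.04 and 25.7.

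Housekeeping and turnover genes stood on both sides. Tubb5 had 28.9 (deposited SD 2.30) and 73.8 (3.85), and Cyc1, a subunit of respiratory complex III, had 27.1 and 56.9. These were the 2 of 4 housekeeping members of the class past 2-fold, beside 5 of 20 measured genes higher and 0 lower over the list. Neither Tubb5 nor Cyc1 passed after the shift was removed. Klhl10 had 204 (6.95) and 60.4 (4.17), a change of -1.74, and was the 1 lower gene among 5 class members of the ubiquitin list. Over that list 3 of 36 genes were lower and 3 higher. The ribosomal protein genes Rps18, Rpl18 and Rpl3 and the class genes of the core histones H2A, H2B and H4 all stayed within 2-fold. Over the ribosomal list 3 of 32 genes were higher and 0 lower, and over the core histone list 2 of 20 were lower and 0 higher.

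The class genes were set beside the neighbouring genes whose promoter score they carried. With both genes spanning at least 200 bp, 517 pairs of a class gene and a named neighbour were measured, with 472 distinct neighbours. Among them are pairs of unmerged names of the same gene, such as Pmi with Mpi and GPx4 with Gpx4. Some class genes also count under several names, such as Pkd1l3 and PKD1L3. The neighbours had the higher median wild-type signal, 14.9 against 5.28, and 99.6% of them had a Pol II promoter score against 73.3% of the class genes. The class gene had the higher wild-type signal in 175 pairs (33.8%). In the knockout, the median change was 0.35 for class genes and 0.39 for neighbours, and 25 class genes (4.84%) and 24 neighbours (4.64%) were higher. Class genes were lower in 47 pairs (9.09%) and neighbours in 13 (2.51%). The counts of higher genes were thus close, and those of lower genes differed. In 0 pairs were both lower, in 5 both were higher, and in 1 pair, 2610318N02Rik and Sdf2l1, the class gene was lower and the neighbour higher. Over all named genes of that span, 6.84% were lower and 7.02% higher. The neighbours carry a TAF7L promoter score by definition. Genes of that span with any TAF7L promoter score had 3.04% lower and 5.1% higher, so the neighbours' shares stood near those of their own class.

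The pairs described next were picked for a class gene that was lower in the knockout, with their values already known, and do not stand for all pairs. Oaz3 had a TAF7L proximal score of 187, equal to the promoter score of Mrpl9, a mitochondrial ribosomal protein gene. Mrpl9 RNA stood at 11.4 in wild-type and 19.3 in knockout testis, a change of 0.71 beside -2.48 for Oaz3. Oaz3 had a Pol II promoter score of 313, and Mrpl9 one of 839. Gapdhs shared its score of 56.3 with Tmem147, whose RNA was 28.6 and 38.4. Klhl10 shared 195 with the nucleotidase gene Nt5c3b, which had 14.9 and 11.9. Fam71f2, named GARI in the files, shared 84.2 with Hilpda, and had 245 and 50.2 beside 12.4 and 13.1. In each of these 4 pairs the class gene held the higher wild-type signal, unlike in most of the 517 pairs, and the neighbour stayed within 2-fold. The acrosomal pair Actl7a and Actl7b shared 56.6, and Actl7b had 614 and 360, so that both had less RNA in the knockout, with Actl7b within 2-fold.

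**Figure D5:**
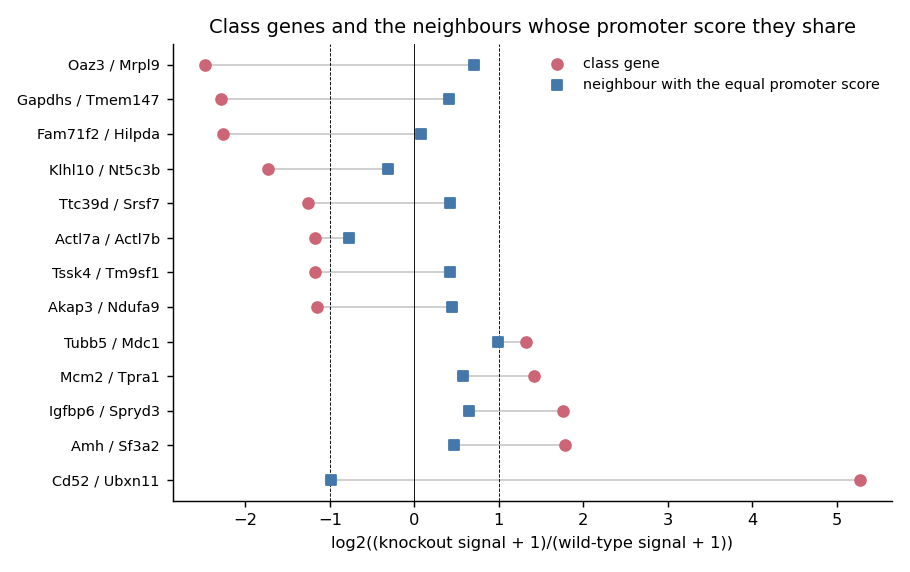
Change in the knockout on the log2 scale (x axis) for 13 class genes (circles) and the neighbour whose TAF7L promoter score equals their proximal score (squares), 1 pair per line, with dashed lines at 2-fold. With the pseudocount of 1, the neighbours stay within 2-fold in every pair drawn, and Cd52 stands apart at 5.27. Mdc1, beside Tubb5, at 0.99 and Ubxn11, beside Cd52, at -0.99 lie next to the dashed lines. These pairs were picked with their values already known.

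The largest increase in the class was that of Cd52. This gene, a small surface glycoprotein of leukocytes and of the epididymis, had a signal of 3.17 (deposited SD 1.78) in wild-type and 160 (16.1) in knockout testis, a change of 5.27. Its neighbour Ubxn11, which carried the promoter score of 186, had 125 and 62.4, and Cd52 itself had a Pol II promoter score of 0. The epididymal gene Crisp1 was at 0.042 and 75.9, 3 of the 18 epididymis markers were at 0 in the wild type, and the summed macrophage and leukocyte markers were 78.6 and 298, with 13 of 15 higher. The part of these cell types in the rise of Cd52 was not tested. Of the 5 class members of the leukocyte list, Cd52 alone passed 2-fold with the pseudocount of 1. Over the whole list, 6 of 12 measured genes were higher and 0 lower. The complement gene C1qb had 12.2 and 23.4. The lysosomal marker gene Cd68 had 1.34 and 2.99, a change of 0.77. The class II antigen presentation genes H2-Aa and H2-Ab1 had 5.33 and 3.90 and 8.61 and 9.01, so the members of the list did not all have more RNA in the knockout.

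Other increases were smaller. Wfdc1, a secreted protease inhibitor, had 3.29 and 18.7, and Igfbp6, which binds insulin-like growth factors, had 12.7 and 45.7. Ptma, the nuclear acidic protein prothymosin, had 99.3 and 271, and Mcm2 had 5.00 and 14.9. Amh, the Sertoli hormone that regresses the Müllerian duct, had 1.69 and 8.24, and Sox9, a Sertoli transcription factor, 4.49 and 8.56. Both belong to the Sertoli markers described above, all of which were higher in the knockout, and the part of Sertoli cell RNA in these values was not tested. The Leydig list held a decrease: Ptgds, a prostaglandin synthase, had 294 (deposited SD 13.4) and 58.4 (6.95), while the summed Leydig markers were 2320 and 1800, with 14 of 17 higher. Star, which brings cholesterol to the mitochondria for steroid synthesis, had 23.5 and 11.7, a change of -0.95 with the pseudocount of 1, and counted as lower once the shift of 0.40 was removed.

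The highest proximal scores, a value the rule used, are given with the RNA as a description. Apart from the mitochondrial transcripts, the highest among genes of the class with a mean of at least 1 were Eif4enif1 at 516, 6820408C15Rik at 440, Srp72 at 394 and Ttc39d at 361. Eif4enif1, a partner of the cap-binding protein, had RNA of 2.50 and 4.49, and Srp72, of the signal recognition particle, 20.0 and 20.9. Ttc39d was the 1 gene of these that passed 2-fold, with 115 (deposited SD 6.38) and 47.8 (3.87), while Srsf7 had 4.44 and 6.32. Of 981 class genes with a proximal score at or above the median, 58 (5.91%) were higher and 64 (6.52%) lower in the knockout, near the background of 7.29% and 7.18%.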

How the data were processed

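TAF7L and Pol II ChIP and polyadenylated RNA of testis were analysed, with 1 library per antibody and genotype. Per the labels' protocols, chromatin came from 10 mice, 1 mg per immunoprecipitation was sheared to 175 to 225 bp and 4 µg of antibody was used, and each RNA library was made from 8 µg of pooled RNA and gave 100 to 200 M reads. The depth of the ChIP libraries is unknown. The submitters' processing notes name Bowtie for ChIP, Bowtie, TopHat and Cufflinks for RNA, and build mm9. Versions and the use made of the IgG library are not stated there, and no IgG column was used here.

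The authors deposited a score per transcript and position class, with 3 significant digits and no definition in the header. They deposited a mean and SD of an expression signal per transcript, on the scale of RPKM, with no unit in the header. The authors' deposited log2 ratio and SD to mean ratio were not printed. Scores and signals were joined by transcript identifier, and 69 of 55419 transcripts of the binding table, none of them members, had no signal. Symbols were merged through RefSeq (GRCm38.p6), which was also used for strand and promoters. Aliases that were not resolved stayed separate names, so counts of genes and of neighbours include such duplicates. Strand of counting was not stated, so overlapping and antisense genes cannot be separated, and near-identical copies such as histones and ribosomal protein genes are uncertain.

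Change was log2((knockout + 1)/(wild type + 1)) for genes whose mean signal reached 1, called at 2-fold. An equal score is an identical deposited value on the same chromosome, taken as nearby within 100 kb, with transcripts of the same gene preferred, then other named genes. Named genes are the 10 highest proximal scores, the 12 highest wild-type signals, the 10 largest increases and decreases with a mean of at least 5, and the extremes of 19 gene lists; other genes were named after their values were seen. Members and lists were chosen with earlier results of these data known. Python 3.11, pandas 2.3.3 and scipy 1.17.1 were used, and the counts were tested on simulated data.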

Additional observations from a re-analysis of the deposited data

How the results depend on the processing

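No paired analysis was possible because each genotype had 1 library and no replicate numbers were shared. With a pseudocount of 0.1, 238 class genes were higher in place of 103, 160 were lower in place of 134, and the median change was 0.42 in place of 0.34. Removing the median shift of all genes left 26 higher and 240 lower, and turned the median to -0.07. A floor of 5 gave a median of 0.23 and no floor 0.21. With proximal scores at or above the median, 58 were higher and 64 lower, and the share of members with a Pol II promoter score was 47.1% in place of 49.1%. That share was 52.7% for members with a mean signal of at least 1 and 38.9% with 1 transcript per gene. The share with an equal promoter score was 84.8% on the chromosome and 75.1% within 100 kb, and the share with an RNA signal was 62.0% at a mean of 1 and 34.4% at 5. Except where the setting itself changes which genes are counted, the cause was not tested. Leaving out spans under 200 bp, an alternative chosen after seeing the data, gave 81 higher, 119 lower and a median of 0.34. Of 63 genes named by the rule, 62 kept their side of 2-fold with the pseudocount of 0.1 and 59 after the shift was removed. The single library per genotype limits every comparison, and ChIP depth and score definition are unknown.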
